A study of Mus musculus with 24 samples.

Results

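Late mammary tumors from mice whose high-fat diet had been withdrawn in adulthood were compared with late tumors from mice that stayed on it. The arrays were chosen by label alone: 3 labeled HFD-LFD Late (tumors 26, 58 and 59b) and 6 labeled HFD Late (tumors 62a, 67, 84, 86, 93 and 96), 9 of the 24 arrays in the series. All were tumors of female BALB/c mice given DMBA (7,12-dimethylbenz[a]anthracene), a carcinogen that induces mammary tumors. HFD is a diet high in saturated animal fat and LFD a low-fat diet. Both groups therefore shared HFD through puberty and DMBA, and differed in the adult diet, which was LFD in the HFD-LFD mice and HFD in the others. Late refers to the time at which the tumor appeared, and the labels give no ages. The comparison asks whether taking the fat away after puberty leaves late tumors that differ in gene expression from those that arise with the fat still present. A further 9 late arrays were used only for the difference between diet switches, 5 labeled LFD Late (LFD throughout) and 4 labeled LFD-HFD Late (LFD through puberty, HFD as adults).

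Each tumor RNA was hybridized with a reference RNA pooled from 11 mouse cell lines on a 2-color array, and a level is given here as the log2 ratio of tumor over reference. The labels put the tumor in Cy5, whereas the study's methods put the reference there, so the direction used here opposes that text. The signals settled it. The median SD between the 24 arrays was 0.529 log2 units in Cy5 and 0.202 in Cy3, and the Y-linked genes Ddx3y and Eif2s3y were well above background in Cy3 on 24 arrays and in Cy5 on 0 arrays. Cy5 was dimmed in a block of rows on 2 slides, and those spots were set to missing: the first rows of the array in tumor 59b (20.2% of spots) and the last rows in tumors 93 and 96 (28.3%). No slide held both groups, and of the 3 scan sessions only the third did (59b with 93 and 96). Over the 9 arrays 65.9% to 89.0% of probes were well above background in Cy5.

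DMBA tumors of the mammary gland arise from its epithelium and vary in histology, from glandular growths that keep luminal keratins and milk proteins to growths with squamous, skin-like differentiation. A tumor sample also holds fibroblasts, vessels, fat, infiltrating leukocytes and sometimes the muscle under the gland. In such bulk RNA, fewer cells of a type and less RNA per cell cannot be told apart.

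Tumors of different groups were about as alike as tumors of the same group. The log2 ratios of pairs of tumors over all genes tested correlated at a median r of 0.81 among the 3 HFD-LFD Late tumors (range 0.742 to 0.839), 0.82 among the 6 HFD Late tumors (0.581 to 0.967) and 0.79 between the groups (0.617 to 0.875). Tumor 86 of the HFD Late group stood apart. It correlated with the other HFD Late tumors at only 0.581 to 0.669, and with tumor 59b of the other group at 0.809. Tumors 67 and 84 lay closest, at 0.967. The SD of their difference was 0.286 log2 units with 158 genes more than 2-fold apart, whereas the other 35 pairs had SDs of 0.518 to 1.13 and 1035 to 4036 such genes. The labels do not say whether separate tumors came from separate mice, so the p-values measure only the spread between these samples.

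**Figure D1:**
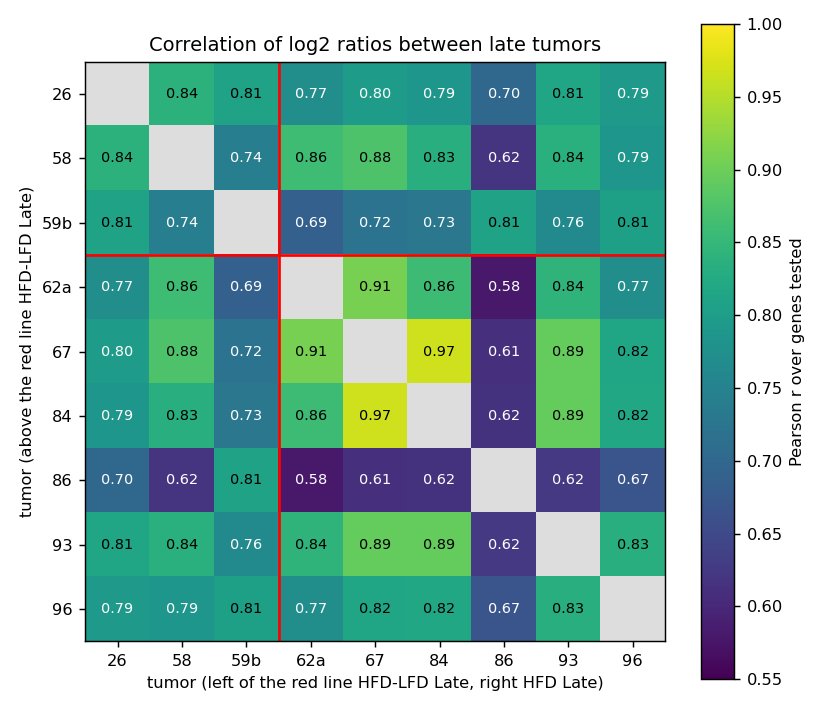
Pearson correlation of log2 ratios (tumor over reference) between the 9 late tumors over all genes tested, with the 3 HFD-LFD Late tumors above and to the left of the red lines. The blocks within and between groups have similar colors, tumor 86 is dark against its own group (0.581 to 0.669), and 67 and 84 form the brightest pair (0.967).

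No gene passed the test. Of 20362 genes compared by limma between the groups, 0 (0%) had a Benjamini-Hochberg adjusted p below 0.05, the lowest being 0.393. Before adjustment, 1104 genes higher in HFD-LFD Late tumors (5.42%) and 759 lower ones (3.73%) had a p under 0.05. The 3 and 6 tumors did not overlap in 1074 genes with HFD-LFD Late higher (5.27%) and 793 with it lower (3.89%). Of all genes 53.6% had a difference above 0, with a median of 0.03. The spread set the limit: the median SD was 0.246 log2 units within HFD-LFD Late and 0.338 within HFD Late, and the median 95% interval of a difference was 1.13 log2 units wide. A difference of 1 or more was measured in 756 genes. Weighting arrays by their fit called 528 genes, but gave tumor 67 a weight of 6.14 and tumor 84 one of 3.23 while the others had 0.318 to 1.79. Estimating the spread from all 24 arrays called 50 genes, 30 higher and 20 lower, and with scan session as a block the same fit called 0 of 14392. Leaving out 1 tumor at a time called 0 genes, with a smallest adjusted p of 0.0557 without tumor 86 and 0.797 without tumor 67.

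Among genes with all or all but 1 of the 9 values, the 10 with the smallest p in each direction, differing by at least 1 log2 unit with no overlap between groups, were taken, and 19 of these 20 are described next. They were picked for their distance, so their separation is a description. All had the same adjusted p range, 0.393 to 0.447, and none passed. On the higher side stood Gch1 (GTP cyclohydrolase, the first enzyme of tetrahydrobiopterin synthesis; probe at chr14:47775348-47775407, mm9, minus strand). Its log2 ratio was 0.31 in tumor 26 and 1.14 in 59b, with the spot of 58 excluded, and -1.60, -1.11 and -0.81 as the lowest, median and highest of the HFD Late tumors, a difference of 1.90 (SE 0.29). By the mean of its probes Gch1 differed by 1.36. Fxyd4, a small regulator of the sodium pump, lay at 2.95, 2.13 and 4.60 in tumors 26, 58 and 59b and between 0.39 and 1.23 in HFD Late tumors (difference 2.47, SE 0.46). The difference was 4.18 within the third scan session, where 59b met 93 and 96, and 1.61 without the arrays of the 2 dimmed slides.

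Cebpd, a transcription factor induced by inflammation and by milk stasis, was tight in the switched tumors, at 0.95, 1.08 and 1.13, against -1.14 to 0.28 (difference 1.37, SE 0.29). Zmynd15, a zinc finger repressor known from male germ cells, was tighter still, at 3.27, 3.26 and 3.32 against 0.96 to 2.52 (difference 1.42, SE 0.30, and 1.08 by the mean of its probes). Cyp2d10, a cytochrome P450 of the drug-metabolizing 2D family whose members are close in sequence, was far below the reference in both groups but less so in HFD-LFD Late tumors, at -2.52 in 26 and -1.50 in 58 against -5.02 to -3.67 (difference 2.22, SE 0.39). Others were Rnu3b1 (U3 small nucleolar RNA, difference 2.36), Agr3 (an epithelial disulfide isomerase, 1.38), Smim3 (a small membrane protein, 1.38) and H4c3 (histone H4, 1.3). Rnu3b1 and H4c3 belong to multicopy families in which a probe can take signal from near-identical genes.

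On the lower side the smallest p of the whole comparison belonged to Hnrnpul2, an RNA-binding protein of the DNA damage response (probe at chr19:8908365-8908424, mm9, plus strand). It lay at -0.55 in tumor 26 and -0.80 in 58, was dimmed in 59b, and ranged from 0.30 to 0.68 in HFD Late tumors (difference -1.17, SE 0.17). Srsf1, a splicing factor that can act as an oncogene in breast epithelium, lay at -0.52, -0.13 and 0.28 against 0.68 to 1.35 (difference -1.14, SE 0.21), though the mean of its probes gave only -0.30. Tug1, a long noncoding RNA, lay at -1.38, -0.79 and -0.84 against -0.04 to 1.27 (difference -1.44, SE 0.31), and -0.39 by the mean of its probes. The probes of Srsf1 and of Tug1 thus disagreed in size.

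Serpinh1 (HSP47), the chaperone that collagen needs for folding, lay at -1.44, -1.78 and -1.16 in the switched tumors and at -0.58 to 0.03 in 5 HFD Late tumors with a value (difference -1.18, SE 0.21). Col6a4, a collagen VI chain, lay at -2.42, -1.88 and -2.05 against -1.60 to -0.55 (difference -1.09, SE 0.26). Tgfbr3 (betaglycan, a TGF-beta co-receptor) lay at -1.95, -0.98 and -1.21 against -0.70 to 0.36 (difference -1.07, SE 0.27). The others were Bcas1 (amplified in some breast cancers, difference -1.83), Cep170 (a centrosome protein, -1.22), Plek2 (a pleckstrin of the cytoskeleton, -1.20) and Arid4a (a chromatin protein that binds RB1, -1.03, but -0.34 by the mean of its probes). Within the third session Serpinh1 differed by -0.81, Tgfbr3 by -0.72, Col6a4 by -0.54 and Plek2 by -0.49.

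**Figure D2:**
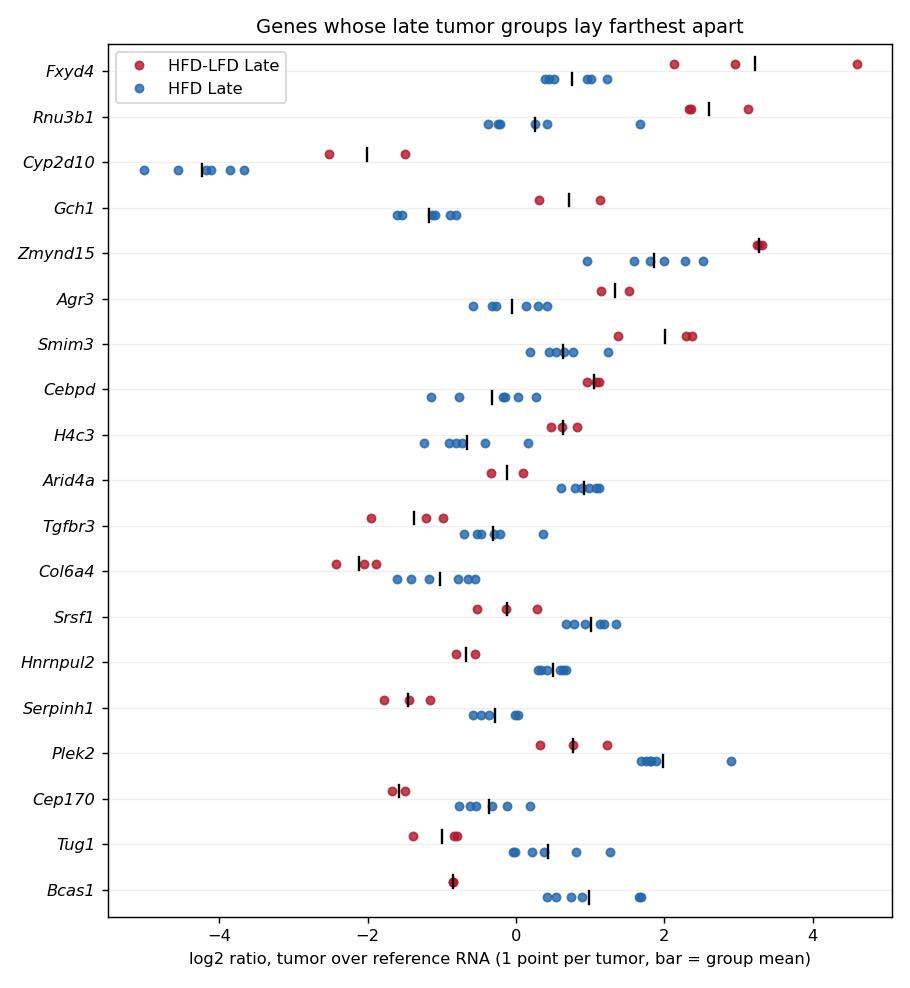
Log2 ratios, tumor over reference, of 19 of the 20 genes (10 per direction) with the smallest p among those that differ by at least 1 log2 unit with no overlap, 1 point per tumor and a bar at each group mean. Red HFD-LFD Late points (2 or 3 per gene) lie apart from blue HFD Late points (5 or 6) by construction, and the reds spread widely in Fxyd4 (2.13 to 4.60) and hardly at all in Zmynd15 (3.26 to 3.32).

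Gene lists were then read in the same way. For 22 pathways and 15 cell types (37 lists, 602 genes tested) no list held a called gene, and in 0 of 37 did the list's level in the 3 HFD-LFD Late tumors clear that of all 6 HFD Late tumors. A list's level in a tumor is the mean, over its genes, of the tumor's deviation from the midpoint of the 2 group means, in log2 units.

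**Figure D3:**
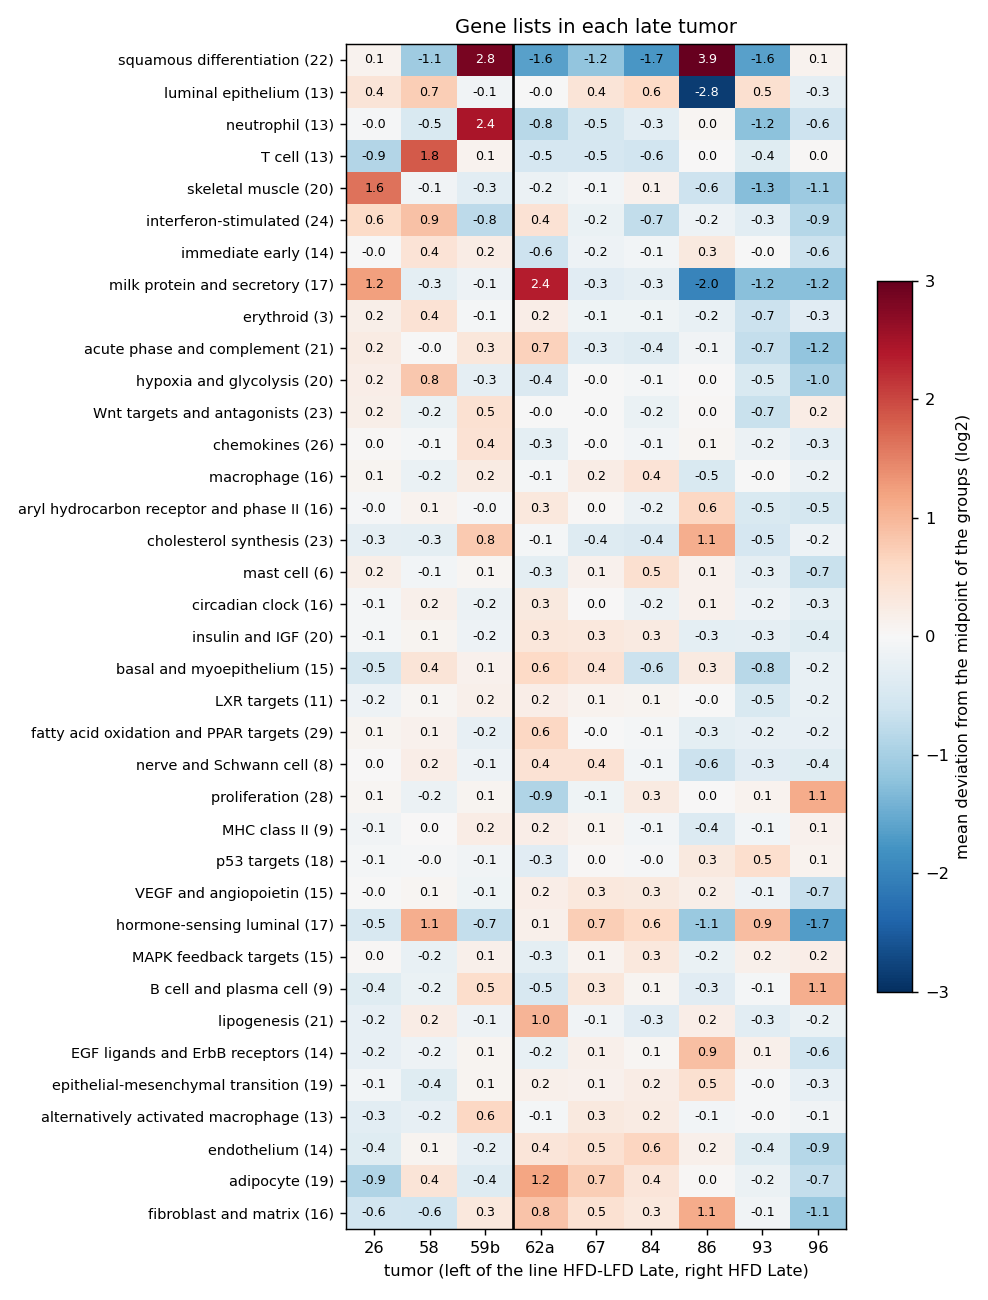
Level of each gene list (number of genes tested in parentheses) in each of the 9 tumors, as the mean deviation in log2 units from the midpoint of the groups, ordered by the median difference between groups. In many lists 1 or 2 tumors stand out, such as squamous genes in 59b (2.85) and 86 (3.87), T cell genes in 58 (1.84), muscle genes in 26 (1.62) and milk genes in 62a (2.35), and colors are cut at 3 on either side.

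Among the epithelial lists, squamous differentiation had the largest median difference, 0.85, with 18 of 22 genes higher in HFD-LFD Late tumors and 1 at an unadjusted p under 0.05 (5.42% of all genes). Its level was 2.85 in tumor 59b of the switched group and 3.87 in tumor 86 of the continuous group, and between -1.74 and 0.11 in the other 7. Krt1, a keratin of cornified epidermis, had a log2 ratio of 2.16 in 86 and -2.83 in 59b, and of -6.39 to -6.09 in the 5 other tumors with a value. Krt6a, a keratin of stressed epidermis, lay at 2.81 in 59b and 3.13 in 86, but also at 1.49 in 26. Without 59b the list's median was -0.05, and within the third scan session, where 59b met 93 and 96, it was 4.09.

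Luminal epithelium had a median of 0.82 with 11 of 13 genes higher. Tumor 86 lay at -2.84 while the other 8 lay between -0.27 and 0.73. Krt8 and Krt19, keratins that define luminal mammary cells, had log2 ratios of -4.74 and -4.37 in 86, against 0.45 to 3.52 and 0.74 to 4.88 in the other tumors with a value, so the markers of the labelled tissue were low in that tumor. Without tumor 86 the list's median was -0.04, and within the third session it was -0.35. Ehf, an epithelial ETS factor, was the luminal gene with the smallest p, at 3.25, 2.91 and 4.10 against 1.39 to 3.05 (difference 1.18, SE 0.40). Milk genes had a median of 0.48 with 16 of 17 higher and 0 at an unadjusted p under 0.05 (5.42% of all genes). Csn2, beta-casein, reached 8.03 in tumor 26 and 8.89 in tumor 62a, 1 of each group, and -0.48 in 86, with a difference of 0.81 (95% interval -4.38 to 6.00). Without tumor 26 the median of the milk list was -0.0035. Hormone-sensing luminal genes had a median of -0.10, and the list lay from -1.67 in tumor 96 to 1.1 in tumor 58. Esr1, the estrogen receptor, differed by -0.78 (95% interval -2.22 to 0.66). Basal and myoepithelial genes had a median of -0.01 with 7 of 15 higher.

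Stromal lists had medians below 0, without a called gene. Fibroblast and matrix genes had a median of -0.81 with 14 of 16 lower and 1 of them, Pdgfrb, at an unadjusted p under 0.05, against 3.73% of all genes (difference -1.16, 95% interval -2.27 to -0.04, and 0.56 within the third scan session). The list lay at -0.57, -0.60 and 0.31 in tumors 26, 58 and 59b and at -1.11 to 1.1 in HFD Late tumors, with tumor 96 the lowest of all. Col3a1, a fibrillar collagen, ranged from -3.56 to -1.62 in the 3 tumors and from -2.63 to 0.05 in 5 HFD Late tumors (difference -1.31). Within the third scan session the list's median was 0.65, of the opposite sign. Adipocyte genes had a median of -0.43 with 14 of 19 lower, and of 0.19 within the third session. Adipoq, the fat cell hormone adiponectin, ranged from -4.37 to -1.32 over both groups. Endothelial genes had a median of -0.31 with 11 of 14 lower and 3 at an unadjusted p under 0.05, against 3.73% of all genes. The median was 0.0062 without tumor 26 and 0.22 with session as a block. The 3 genes were Tek, the angiopoietin receptor, Tie1, a related receptor, and Sox18, a factor of vessel development. Tie1 lay at -1.52, -1.61 and -1.39 against -0.99 to -0.28 in 4 HFD Late tumors (difference -0.89, SE 0.20), and -0.28 in the tumor channel alone. Tek lay at -1.92, -1.85 and -2.0 against -1.98 to -0.03 (difference -0.97, SE 0.36), and turned to 0.14 in the tumor channel alone. The vessel genes Pecam1 and Cdh5 differed by -0.29 and -0.30 (Pecam1 by 0.48 in the tumor channel alone and 0.21 with the dimmed rows kept), and Kdr, the main VEGF receptor, by 0.40. Within the third session, without Tie1 and Sox18, the median of the list was 0.62.

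Muscle genes were highest in 1 tumor. Of 20 skeletal muscle genes 18 were higher in HFD-LFD Late tumors, 6 at an unadjusted p under 0.05 against 5.42% of all genes, with a median of 0.69. The list lay at 1.62 in tumor 26 and at -1.27 to 0.14 in the other 8. Myh4, the fast IIb myosin, had a log2 ratio of 3.07 in tumor 26, -2.22 in 58 and -3.33 in 59b, against -4.38 to -3.35. Without tumor 26 the median was 0.31. It was 0.82 within the third session, which lacks tumor 26, and 1.14 with session as a block. Its sign was the same in all 31 alternatives. Cpt1b and Ppargc1a, genes of fat oxidation that muscle also expresses, were also above the HFD Late range. Cpt1b lay at -2.61, -3.15 and -3.56 in the same order against -4.16 to -3.83 (difference 0.92, SE 0.20), and differed by 0.45 by the mean of its probes and 0.43 within the third session. Ppargc1a lay at -1.58, -1.0 and -1.94 against -2.42 to -1.96 (difference 0.71, SE 0.22), and differed by 0.25 within the third session and 0.14 in the tumor channel alone. The part of muscle RNA in either difference was not tested.

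Leukocyte lists also stood out in single tumors. T cell genes had a median of 0.70 with 13 of 13 higher and 1 at an unadjusted p under 0.05 (5.42% of all genes). The list lay at 1.84 in tumor 58, at -0.88 in 26 and 0.11 in 59b, and at -0.58 to 0.03 in HFD Late tumors. Cd8a, which marks cytotoxic T cells, had a log2 ratio of 3.41 in 58 and -0.99 to -0.02 in the other 8. Lck, a kinase of the T cell receptor, lay at 3.04 in 58, -0.26 in 26 and 0.45 in 59b against -0.78 to -0.56. Without tumor 58 the list's median was -0.13. Neutrophil genes had a median of 0.73 with 10 of 13 higher. S100a8, a calcium-binding protein of neutrophils that squamous keratinocytes also make, lay at 4.65 in 59b and 0.69 in 86, the 2 tumors high in squamous genes, and at -0.07 and -2.85 in 26 and 58. The other 5 HFD Late tumors lay between -5.39 and -2.65. Without 59b the neutrophil median was -0.05. Macrophage genes had a median of 0.07 with 9 of 16 higher, and their level was -0.45 to 0.41 over all 9 tumors. Adgre1, which encodes the macrophage antigen F4/80, lay at -0.22 and -0.66 against -0.41 to 0.62 (difference -0.74), and at 0.05 by the mean of its probes. Fcgr1, a high-affinity IgG receptor of macrophages, lay at 1.99, 1.28 and 2.52 against 0.76 to 1.56 (difference 0.83).

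Of 26 chemokine genes tested, 18 were higher and 5 of them were at an unadjusted p under 0.05 (5.42% of all genes), all in the same direction. The smallest p was that of Cxcl1, which recruits neutrophils (probe at chr5:91321845-91321904, mm9, plus strand). It lay at 2.66, 2.59 and 2.37 in tumors 26, 58 and 59b, above all 6 HFD Late tumors at 0.40 to 2.08. The difference was 1.44 (SE 0.36, adjusted p = 0.447 by limma), and it was 1.22 within the third scan session and 1.64 without tumor 86. Ccl12, a monocyte chemokine, lay at 2.57, 2.89 and 3.18 against 1.60 to 2.63 (difference 0.66). Ccl3 and Ccl4, made by macrophages and other leukocytes, differed by 0.75 and 0.72 and overlapped between groups. Ccl17, a ligand of CCR4, a chemokine receptor found on T cells, lay at 1.32 and 2.90 in 26 and 59b against 0.56 to 1.41 (difference 1.13, SE 0.41).

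Hypoxia genes held the most members at an unadjusted p under 0.05 of any pathway list, 6 of 20 and all higher, against 5.42% of all genes. The list's median was 0.36 with 14 of 20 higher, and the groups did not overlap in 4 of 20 (5.27% of all genes). Hypoxia-inducible factors bind promoters at a short core, ACGTG, and drive glycolysis, pH control and their own feedback. The 250 bases before the start of 3 of the 4 members whose groups did not overlap are shown here, with each ACGTG on either strand in capitals (RefSeq, GRCm38.p6, 5′ to 3′ on the gene's strand). A match is a description, not a binding site.
Ankrd37 (chr8:45999851-46000100, minus strand): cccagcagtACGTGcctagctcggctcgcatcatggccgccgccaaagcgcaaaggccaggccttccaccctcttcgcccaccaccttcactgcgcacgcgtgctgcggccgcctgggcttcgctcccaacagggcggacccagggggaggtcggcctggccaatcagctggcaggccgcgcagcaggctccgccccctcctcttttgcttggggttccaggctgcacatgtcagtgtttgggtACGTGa
Egln3 (chr12:54203875-54204124, minus strand): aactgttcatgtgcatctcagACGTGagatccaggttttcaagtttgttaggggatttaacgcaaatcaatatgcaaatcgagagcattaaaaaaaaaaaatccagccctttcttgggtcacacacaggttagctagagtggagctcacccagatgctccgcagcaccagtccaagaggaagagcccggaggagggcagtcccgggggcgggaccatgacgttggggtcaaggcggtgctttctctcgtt
Bnip3 (chr7:138909507-138909756, minus strand): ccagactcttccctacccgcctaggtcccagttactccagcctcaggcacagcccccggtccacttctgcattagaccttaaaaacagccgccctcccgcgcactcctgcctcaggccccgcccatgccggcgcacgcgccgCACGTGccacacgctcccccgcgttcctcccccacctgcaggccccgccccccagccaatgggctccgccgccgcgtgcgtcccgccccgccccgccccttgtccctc
The core occurred in such a window of 12 of the 19 tested genes with a promoter in the table. Counted by promoter, as some genes have several, 13 of the 24 in the list held it, against 16.6% of all 32851. It overlaps the E-box CACGTG, which 1 of the 24 and 6.02% of all promoters held.

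Ankrd37, an ankyrin protein induced by hypoxia, lay at 1.25, 0.96 and 1.14 in tumors 26, 58 and 59b and at -0.90 to -0.06 in the 4 HFD Late tumors outside the dimmed rows (difference 1.41, SE 0.24, adjusted p = 0.393 by limma). Egln3, a prolyl hydroxylase that marks the factors for destruction, lay at 0.56, 2.06 and 0.80 against -0.95 to 0.50 (difference 1.49, SE 0.40). Bnip3, a mitophagy receptor, lay at -1.73 in 26 and -0.19 in 58 against -3.64 to -1.83 (difference 1.42). Car9, a carbonic anhydrase that exports acid, lay at 1.65, 1.87 and 0.02 against -0.78 to 0.37 (difference 1.26), and Adm, a vasodilator peptide, at 1.05 and 3.01 against -0.98 to 1.13 (difference 1.75). Pgk1, a glycolytic enzyme, differed by 0.79. Tumor 58 had the highest value of all 9 tumors in Egln3, Bnip3, Car9 and Adm. Other glycolytic genes lay near 0, as Gapdh, Pkm, Hk1 and Hk2 differed by 0.15, -0.08, 0.05 and -0.07. The list lay at 0.20, 0.82 and -0.28 in tumors 26, 58 and 59b, and its median was -0.0038 within the third session and 1.45 with session as a block. Ankrd37 had no value in either of these fits.

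**Figure D4:**
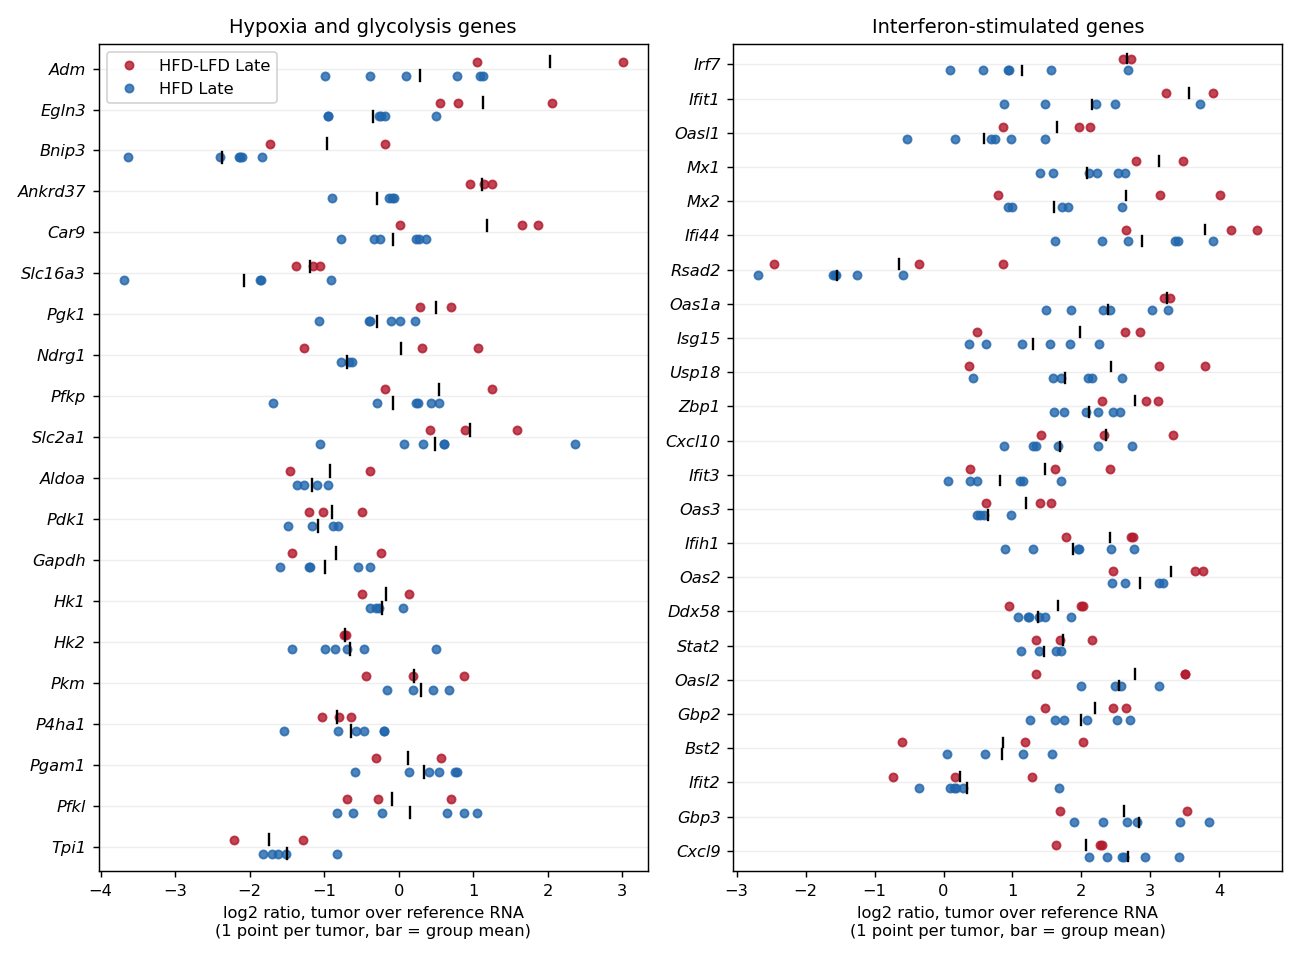
Log2 ratios of every tested gene of the hypoxia and glycolysis list (left, 20 genes) and of the interferon-stimulated list (right, 24 genes), 1 point per tumor and a bar at each group mean. Red HFD-LFD Late points lie to the right of all blue HFD Late points in Egln3, Bnip3, Ankrd37, Pgk1 and Mx1, and the colors overlap in the other genes.

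Interferon-stimulated genes had a median of 0.66 with 21 of 24 higher in HFD-LFD Late tumors. Of the 24, 4 were at an unadjusted p under 0.05 (5.42% of all genes) and 1 had separate groups (5.27% of all genes). The 3 switched tumors did not go together. The list lay at 0.57 in 26, 0.87 in 58 and -0.78 in 59b, and at -0.87 to 0.43 in HFD Late tumors, where 62a was highest. Isg15, a ubiquitin-like protein, followed that order, at 2.63, 2.85 and 0.48 against 0.38 to 2.26 (difference 0.69). Irf7, the factor that amplifies type I interferon, lay at 2.60 and 2.73 against 0.09 to 2.67 (difference 1.53), and Mx1, an antiviral GTPase, at 2.79 and 3.47 against 1.39 to 2.63 (difference 1.05). Both genes were dimmed in 59b, and with those rows kept Mx1 differed by -0.09. Within the third session, without Irf7 and Mx1, the list's median was -0.36. STAT and IRF complexes act on these genes through the interferon response element, searched here as GAAA, any 2 bases and GAAA again on either strand and shown in capitals for Isg15 and Ifit1, the latter an RNA-binding antiviral protein.
Isg15 (chr4:156200819-156201068, minus strand): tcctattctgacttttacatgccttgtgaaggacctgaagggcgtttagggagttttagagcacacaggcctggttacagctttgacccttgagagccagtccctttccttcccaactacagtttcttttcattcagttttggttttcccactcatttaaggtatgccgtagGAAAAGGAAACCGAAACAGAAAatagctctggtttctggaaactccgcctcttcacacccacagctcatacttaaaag
Ifit1 (chr19:34640639-34640888, plus strand): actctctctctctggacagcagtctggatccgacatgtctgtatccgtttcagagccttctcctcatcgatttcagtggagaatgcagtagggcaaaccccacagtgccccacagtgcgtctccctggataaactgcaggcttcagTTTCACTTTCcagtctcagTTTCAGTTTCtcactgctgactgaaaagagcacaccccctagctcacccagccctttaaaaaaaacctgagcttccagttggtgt
That pattern occurred in 11 of the 19 tested genes with a promoter in the table. By promoter, 11 of the 21 in the list and 2.98% of all promoters held it.

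Lists for fat metabolism had medians near 0. Lipogenesis genes had a median of -0.18 with 7 of 21 higher, and Fasn, Scd1 and Acaca, which build and desaturate fatty acids, differed by -0.31, -0.43 and -0.34. Dgat2, with the smallest p of the list, went the other way. It lay at -1.65 in 58 and -1.54 in 59b against -2.55 to -2.15 in 3 HFD Late tumors (difference 0.79, SE 0.22). It was the 1 lipogenesis gene of 21 at an unadjusted p under 0.05 (5.42% of all genes) and the 1 with separate groups (5.27% of all genes). Cholesterol synthesis genes had a median of 0.02 with 13 of 23 higher, and of 1.05 within the third session. Their level was 0.79 in 59b and 1.09 in 86, and -0.51 to -0.07 in the other 7. Genes of fat oxidation and PPAR targets had a median of -0.02 with 13 of 29 higher and LXR targets one of -0.01. Of 20 insulin and IGF genes 11 were higher, with a median of 0.0016. Igf2, a fetal growth factor, lay at -3.31, -3.29 and -3.38 against -4.18 to -3.80 (difference 0.69, SE 0.13), but at -0.57 in the tumor channel alone. Insr, the insulin receptor, lay at -1.25, -0.61 and -0.94 against -0.28 to 1.24 (difference -1.07, adjusted p = 0.453 by limma), and Igfbp2, which binds IGFs, at -3.07, -1.01 and -2.43 against -1.24 to -0.06 (difference -1.58, SE 0.46).

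Of 23 Wnt genes 3 were higher and 2 lower at an unadjusted p under 0.05, against 5.42% and 3.73% of all genes. Wif1, a secreted inhibitor of Wnt ligands, had the largest difference on this list (probe at chr10:120537079-120537138, mm9, plus strand). It lay at 1.19, 0.18 and 3.29 in tumors 26, 58 and 59b and at -3.19 to -0.53 in 5 HFD Late tumors, a difference of 3.35 (SE 0.86, adjusted p = 0.447 by limma), and of 6.48 within the third session. Lef1, a transcription factor of the pathway, lay at -0.10, 1.38 and -1.42 against -2.42 to -1.47, with a difference of 1.83 (SE 0.50) and 0.26 within the third session. Sfrp1, another inhibitor, went the other way, at -1.43, -0.13 and -1.28 against -0.67 to 1.31 (difference -1.13). Over the 23 genes the median was 0.27, but it was 0.06 without tumor 86, -0.05 without 59b and 86, and -0.08 with session as a block. Ctnnb1, which encodes beta-catenin, differed by 0.06 (95% interval -0.52 to 0.64, and -0.13 without the arrays of the dimmed slides).

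Genes followed earlier in this mammary model were taken as a set, of which 16 were tested. Ccnd2, a G1 cyclin, had the largest difference, at -1.94 in 26 and -2.10 in 58 against -1.26 to 1.05 (difference -1.91, 95% interval -3.37 to -0.44), and was dimmed in 59b. Apaf1, which activates caspases, lay at -0.52, -0.84 and -0.02 against -0.21 to 1.0 (difference -0.90, SE 0.30). Trp53 lay at -0.69, -0.45 and 0.13 against -0.11 to 0.56 in 4 tumors (difference -0.61), and Brca1, a DNA repair gene, at -0.21 to -0.10 against -0.07 to 0.28 (difference -0.29). The Brca1 probe was well above background in Cy5 in only 1 of the 3 HFD-LFD Late tumors and 5 of the 6 others, and the reference on 5 of the 9 arrays. Arg1, an enzyme of alternatively activated macrophages, ranged from -0.92 to 0.92 and from -3.83 to -0.31 (difference 1.80, 95% interval -0.04 to 3.65). Most genes of the list for these macrophages went the other way, with 4 of 13 higher, 9 lower and a median of -0.28. Ntf3, a neurotrophin, ranged from -2.89 to -0.77 and from -2.48 to 0.05 (difference -0.75, 95% interval -2.10 to 0.61, and 0.67 within the third session). Erbb2 and Tgfa, a receptor and a ligand of the EGF family, differed by -0.11 and -0.16, with signs that turned within the third session (Erbb2, 0.03) and in the tumor channel alone (Tgfa, 0.06). Bmp7 differed by -0.09 (95% interval -1.56 to 1.38), and by 0.84 within the third session. Tgfb1 differed by -0.58, but by -0.07 within the third session and with session as a block. Ccl1, whose sign turned without the signal filter, differed by -0.07, and was well above background in Cy5 in 1 of 3 and 6 of 6 tumors and in the reference on 5 of 9 arrays. For Pgr, Bmp10, Ccl20 and Ccl22 no probe passed the signal filter. Proliferation genes had a median of -0.05 with 10 of 28 higher, and p53 targets one of -0.05. Within the third session these medians were -0.62 and -0.69, and with session as a block -0.71 and -0.43.

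**Figure D5:**
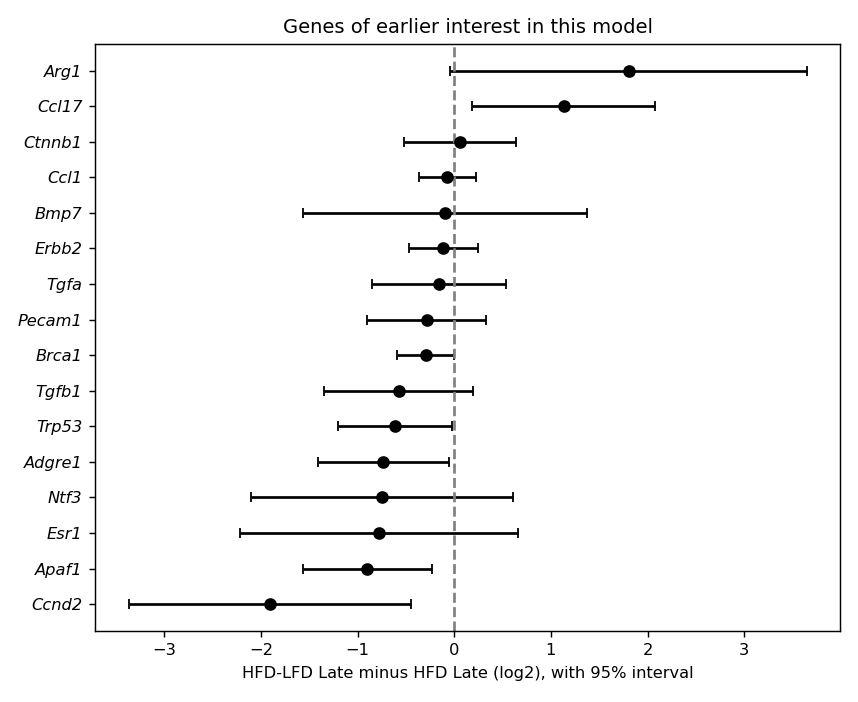
Difference in log2 ratio, HFD-LFD Late minus HFD Late, for the 16 tested genes followed earlier in this model, with 95% intervals from limma. 11 intervals cross 0, those of Ccnd2, Apaf1, Trp53 and Adgre1 lie below it and that of Ccl17 above it, and no adjusted p was under 0.05.

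The remaining lists had medians of -0.28 (alternatively activated macrophages) to 0.50 (immediate early genes), with 0 called genes. Immediate early genes, which respond within minutes to stress and growth factors, were higher in 12 of 14, with a median of 0.06 with session as a block. Atf3 and Nr4a1 had separate groups, 2 of 14 against 5.27% of all genes. They lay at -1.18 to -0.00097 and -1.13 to -0.45 against -2.05 to -1.23 and -1.68 to -1.23 in 4 HFD Late tumors. Epithelial-mesenchymal transition genes had a median of -0.24 with 17 of 19 lower and 0 at an unadjusted p under 0.05 (3.73% of all genes). That list mixes epithelial genes such as Cdh1 with mesenchymal ones such as Vim, so its count gives no direction for the transition. Acute phase and complement genes had a median of 0.43 with 14 of 21 higher. It was 0.0022 without the arrays of the dimmed slides and 1.38 within the third session.

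Whether the adult switch acted differently after a pubertal HFD than after a pubertal LFD was tested as the difference between HFD-LFD minus HFD and LFD minus LFD-HFD over the 18 late arrays. The 2 contrasts share no tumor. Of 19984 genes 664 passed at an adjusted p under 0.05 by limma, 426 above 0 (2.13%) and 238 below 0 (1.19%). Of the 20 genes with the smallest p described above, 10 were among them, such as Tug1 (-2.94, adjusted p = 0.00437), Cep170 (-2.07, adjusted p = 0.00643), Rnu3b1 (3.67, adjusted p = 0.0117), Cyp2d10 (2.74, adjusted p = 0.0118) and Gch1 (2.05, adjusted p = 0.0429). Since these genes were chosen on a part of the contrast, their count is no separate evidence. The contrast also equals the switched-diet groups minus the continuous-diet groups. That division nearly coincides with scan session, as all 7 switched tumors were scanned in session 2 or 3 and 8 of the 11 continuous ones in session 1. With session as a block over the 24 arrays 0 of 14351 genes passed, with a lowest adjusted p of 0.0531 and 2073 genes below 0.05 before adjustment. Of the 664 genes 425 had a value in that fit and all 425 had the same sign. Those genes were chosen on this contrast and both fits hold the 18 late arrays, so the signs are no separate evidence. Rnu3b1 differed in the block fit by 4.55 (adjusted p = 0.0607), Gch1 by 2.83 (0.0676) and Tug1 by -2.53 (0.0676). Diet and session cannot be told apart in the count. Without the arrays of the dimmed slides, 9 genes passed.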

How the data were processed

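Total RNA of 24 mammary tumors was hybridized against Universal Mouse Reference RNA on 2-color Agilent 4x44K whole mouse arrays. The deposited scanner files hold spot intensity values for both channels, which the authors extracted with Feature Extraction (8.5.1.1 in the submitters' processing notes, 11.0.1.1 in the file headers). The same deposited files hold a log10 ratio of Cy5 over Cy3, used only as an alternative.

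From the intensities, unflagged spots were background corrected by normexp (offset 50) and normalized within each array by loess, and log2 ratios were computed from the deposited values with limma 3.58.1 in R 4.3.3. Rows 1 to 110 of slide 7 and rows 381 to 532 of slide 6 were set to missing. Probes needed a signal above 10 in both channels on 80% of arrays, which left 27300 of 39429 probes. The brightest probe stood for a gene, and 20362 genes with at least 2 values in each group were tested. RefSeq named 27234 probes by accession, 3576 by symbol and 565 by an earlier symbol, whereas for 8054 the array's own name was used. Probe positions are those of the files (mm9). No genome was used, so whether a probe lies in an exon or untranslated region is not given.

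HFD-LFD Late and HFD Late were compared by limma (group means, 9 arrays, Benjamini-Hochberg adjusted p under 0.05), and the difference between adult switches over the 18 late arrays. Each array was a sample, and the number of arrays limits the precision. Named were the genes the study followed, the 10 per direction with the smallest p (or the largest difference, had any passed) that differ by at least 1 with no overlap and have at least 8 of the 9 values, and the 2 smallest p of each list. Of these genes 1 is not reported here. Other list members were named for their role after their values were seen. Members and lists were chosen with earlier results of these data known. Alternatives covered the dimmed rows, background, normalization, filters, imputation, probes, weights, slide, session, the samples in the fit and leaving out each tumor. Averaging tumors 67 and 84, and leaving out 59b and 86, were added after seeing the data. The fit was tested on simulated data.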

Additional observations from a re-analysis of the deposited data

Results flagged for a closer look

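Within the 6 HFD Late tumors, 8 of 102 genes (7.84%) and 4 of 37 lists (10.8%) had 1 tumor far from the others by Dixon's test, where chance gives about 1 in 20 groups. Many of the genes were chosen on these tumors, and genes and lists share the same 6 tumors. That rate therefore cannot judge whether the shares are in excess. Tumor 86 was that tumor for 6 genes and 3 lists. It was the highest of its group for Plek2 (log2 ratio 2.906), Fosl1, an AP-1 factor (1.255), Hbegf, an EGF ligand (0.6078), Nfil3, a clock repressor (-0.649), and Hdc, the histamine enzyme (-2.38), and the lowest for the stress factor Atf3 (-2.05). Its list levels were 3.867 for squamous differentiation, 1.091 for cholesterol synthesis and -2.837 for luminal epithelium. Tumor 62a stood apart in Ankrd37 (-0.895), in the erythroid heme enzyme Alas2 (-3.249) and in fatty acid oxidation and PPAR targets (0.6188).

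Of the named genes, 16 differed between the adult switch after pubertal HFD and after pubertal LFD by limma at an adjusted p under 0.05, and 0 of them passed with scan session as a block. The differences were above 0 for Rnu3b1 (3.671), Cyp2d10 (2.744), Zmynd15 (2.083), Gch1 (2.046), Fcgr1 (1.588), Igf2 (1.405), Cpt1b (1.308), Btn1a1, a milk fat globule protein (1.007), and Mbp, a myelin protein (0.8615). They were below 0 for Tug1 (-2.944), Apcs, a serum pentraxin (-2.813), Bcas1 (-2.515), Cep170 (-2.067), Hnrnpul2 (-1.856), Srsf1 (-1.811) and Plek2 (-1.682). With session as a block the sign was the same for the 14 with a value, and the values ran from 4.551 in Rnu3b1 to -2.528 in Tug1. Apcs and Mbp had no value there. The Apcs probe was well above background in Cy5 in 3 HFD-LFD Late tumors but in only 1 of the 4 HFD Late tumors with a value. Its difference between these 2 groups was -1.35, but 1.69 in the tumor channel alone. All 16 were chosen on this same contrast, so the shared sign is no separate evidence. The parts of diet and session cannot be told apart.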

How the results depend on the processing

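For HFD-LFD Late against HFD Late, 0 genes were called except with array weights (528), with 6 group means over the 24 arrays (50), and at an unadjusted p under 0.05 (1863). Leaving out each tumor gave 0 in every case, and the 20 genes with the smallest p kept their sign wherever they had a value. These genes were picked for groups that do not overlap, so settings that only leave out tumors could not turn a sign. Of 3062 alternative values of named gene differences 40 changed sign, and 81 of 103 genes kept theirs throughout. List medians changed sign in 159 of 1147 values, and 6 of 37 lists kept theirs.

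The count for the difference between adult switches, 664, depended on the setting. It was 253 with dimmed rows kept, 170 with normexp fitted on all spots, 278 in the tumor channel alone, 1118 with imputed values, 9 without slides 6 and 7 (which leaves 1 LFD-HFD Late tumor, assumed to vary like the others), 3645 with array weights, 142 with slide as a random block, 1479 with 6 group means over 24 arrays, 0 with scan session as a block, 289 with tumors 67 and 84 averaged and 4034 unadjusted. Without 1 tumor it ranged from 192 to 1133. It was 441, 306 and 380 without LFD Late 105, 122a and 137, 192, 318 and 296 without LFD-HFD Late 42, 45 and 59a, 421, 309 and 234 without 26, 58 and 59b, and 273, 271 and 1133 without 67, 84 and 86. Median centring gave 443 above and 40 below 0, with the median of all genes at 0.244 against 0.0742. The causes were not tested. No paired analysis was possible because each tumor has its own array and no label pairs tumors across groups. The number of tumors and the dimmed rows limit the precision.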
